A study of Mus musculus with 18 samples.

Results

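The genes described here encode 10 enzymes of amino acid metabolism and of phosphoenolpyruvate formation: Asns, Aldh18a1, Pycr1, Got1, Got2, Gpt2, Pck1, Pck2, Bcat1 and Bcat2. They were chosen by name and form 10 of 21887 mouse protein-coding genes. For each gene, every chromatin immunoprecipitation peak in the gene body and 20 kb on either side (the window) was taken from the deposited peak lists. The treated cultures (4 lists, 2-DG replicates 1 to 4) were primary immature neurons taken from mice at embryonic day 14, kept 2 days in vitro and given 10 mM 2-deoxyglucose (2-DG) for 6 h, and their label names an ATF4 antibody. The untreated cultures (4 lists, control replicates 1 to 4) were the same kind of neurons without 2-DG. Their antibody label reads none, while the series design text names the ATF4 antibody for both treatments, so a difference in antibody and a difference in treatment cannot be told apart. No strain is given in the sources, and a peak list holds no expression, so the neuronal label was not checked against markers.

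The study asks where ATF4 sits on chromatin once 2-DG has stressed the cells. ATF4 is a basic leucine zipper transcription factor that is translated when eIF2 is phosphorylated, in the integrated stress response, and it pairs with C/EBP-family proteins at composite sites near genes of amino acid supply. Asparagine synthetase is its textbook target. The other enzymes make proline from glutamate, move amino groups between amino acids and keto acids, or turn oxaloacetate into phosphoenolpyruvate, and several exist as cytosolic and mitochondrial isoenzymes encoded by separate genes.

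The 2-DG lists held 15240, 7369, 6371 and 5856 peaks, and the control lists held 3461, 3784, 8202 and 6811. No read counts come with the lists, so depth is unknown, and the absence of a call is not evidence of absent binding. The cultures were profiled in bulk, so more cells with a bound site and more binding per cell cannot be told apart. Control replicate 1, the shortest list, stands apart from the other control lists at these genes, and results are given with and without it.

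Of the 10 enzymes, 7 had a peak at the gene start in every 2-DG list: Asns, Aldh18a1, Pycr1, Got1, Gpt2, Pck2 and Bcat1. A start peak here is a peak in a merged region, the union of overlapping peaks of the 8 lists, that covers an annotated start. The peak of a single list can stop short of the start itself, as those of Got1 and Gpt2 did in 2-DG replicate 4 and those of Pycr1 and Gpt2 in control replicate 1. The other three, Got2, Pck1 and Bcat2, had no peak at either gene end in any of the 8 lists, as was the case for 89.0% of all genes. By the window, the same 7 genes were called in 4 of 4 2-DG lists, against a background of 5.95% of all protein-coding genes, and the background for at least 3 of 4 2-DG lists was 12.0%. Within 2000 bp of a gene end, all 7 were again called in 4 of 4 2-DG lists, where 1.03% of all genes were. At 7 genes a single merged region was shared by all 4 2-DG lists, which held for 4.28% of all genes. The members were chosen with earlier results of these data known, so these shares are a description and carry no test.

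Control lists differed among themselves. The 2-DG lists each held 7 of the 10 genes at a gene end, while control replicate 1 held 5 (Asns, Aldh18a1, Pycr1, Gpt2 and Bcat1) and control replicates 2, 3 and 4 held 0. Over all genes, gene-end peaks were called at 5.57, 3.7, 2.4 and 2.48% of genes in the 2-DG lists and at 1.51, 1.25, 2.02 and 1.89% in the control lists. In the whole window, 9, 7, 7 and 7 of the 10 genes were called in the 2-DG lists, against 6, 1, 2 and 3 in the control lists. That is 7.5 ± 1.0 in 2-DG lists and 3.0 ± 2.16 in control lists (SD, n = 4 each), beside 21.0 ± 7.99% of all genes in 2-DG lists and 13.8 ± 5.26% in control lists. A single enzyme, Pck2, was called by the window in every 2-DG list and never in a control list, where the background was 1.51%. By gene ends, Got1 and Pck2 were called in every 2-DG list and never in a control list, where the background was 0.567%. The same 2 genes had such a merged region (background 2.61%) and such a promoter summit (background 0.16%). The opposite pattern in the window, no 2-DG list and every control list, was seen at 0 of the 10 enzymes and at 0.0183% of all genes. Without control replicate 1, all 7 start regions were in 4 of 4 2-DG lists but in none of the 3 other control lists, a split chosen after the data were seen. On the same lists, 3.11% of all genes had such a region in their window. Only Bcat1 was called in at least 3 of 4 control lists (background 4.83%), through single-list peaks in 2 of them that lay away from its start. By gene ends 0 of the 10 reached 3 of 4 control lists (background 0.475%), and by a single merged region 0 did (background 2.23%).

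**Figure D1:**
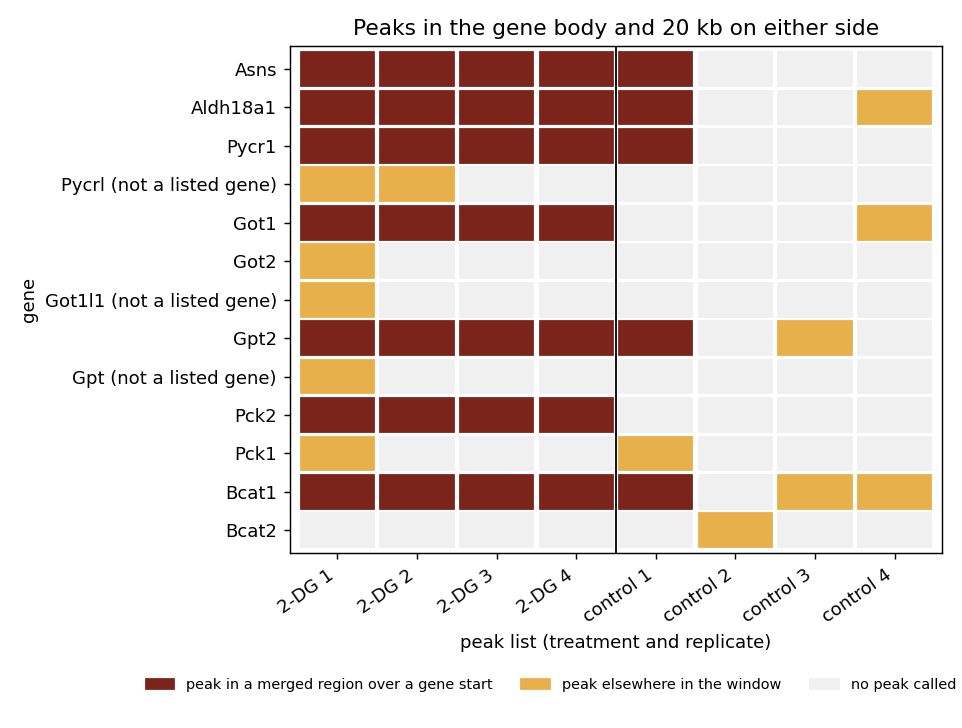
Peak calls at the 10 listed enzymes and 3 further isoenzymes (rows) in the 4 2-DG and 4 control lists (columns). Dark cells mark a peak in a merged region that covers a gene start, light cells a peak elsewhere in the window and grey cells no peak. The 7 dark rows run across all 4 2-DG lists, and 5 of them also cover control replicate 1.

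No gene passed a test over all genes. Fisher's exact test on the number of lists with a peak, two-sided and with Benjamini-Hochberg adjustment over 21887 genes, gave 0 genes (0.0%) at an adjusted p under 0.05, and 334 genes (1.53%) had an unadjusted p under 0.05. The smallest p that 4 lists against 4 allow is 0.0286. Pck2 reached it by the window and by gene ends, and Got1 by gene ends (exact p = 0.0286, adjusted p = 1.0). Asns and Pycr1 had an exact p of 0.143 by either rule (adjusted p = 1.0).

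Sequence at the starts was compared between enzymes with and without a called start peak. The composite element of ATF4 with C/EBP proteins was searched as TGATGNAA on both strands, in the stretch from 250 bases before to 50 after each annotated start (RefSeq sequence of GRCm38.p6, with coordinates as in mm10). It occurred in 766 of 21263 promoters of protein-coding genes (3.6%). Among the 10 enzymes it was found once each at Asns, Pycr1, Got1 and Pck2, all of them with a summit in that stretch in 4 of 4 2-DG lists, which held for 0.263% of the genes with a promoter sequence. No enzyme had one in at least 3 of 4 control lists (background 0.04%). The 250 bases before the start are printed for these genes, and for Got2 and Pck1 as the counterparts of Got1 and Pck2 that had no called start peak. Each runs 5′ to 3′ along its gene, with the motif in capitals. They lie at chr6:7693210-7693459 (Asns, minus strand), chr11:120643749-120643998 (Pycr1, minus), chr19:43524606-43524855 (Got1, minus) and chr14:55540016-55540265 (Pck2, plus), and at chr8:95888402-95888651 (Got2, minus) and chr2:173152823-173153072 (Pck1, plus).
Asns: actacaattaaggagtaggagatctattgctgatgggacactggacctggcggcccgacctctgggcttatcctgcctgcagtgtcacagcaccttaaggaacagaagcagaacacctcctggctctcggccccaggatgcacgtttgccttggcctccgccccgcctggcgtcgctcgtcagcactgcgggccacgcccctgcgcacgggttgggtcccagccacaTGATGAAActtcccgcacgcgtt
Pycr1: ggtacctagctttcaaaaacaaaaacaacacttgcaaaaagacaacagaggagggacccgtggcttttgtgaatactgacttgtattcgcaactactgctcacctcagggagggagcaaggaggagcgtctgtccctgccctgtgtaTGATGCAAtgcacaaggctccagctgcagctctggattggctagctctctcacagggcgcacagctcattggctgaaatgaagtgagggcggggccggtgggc
Got1: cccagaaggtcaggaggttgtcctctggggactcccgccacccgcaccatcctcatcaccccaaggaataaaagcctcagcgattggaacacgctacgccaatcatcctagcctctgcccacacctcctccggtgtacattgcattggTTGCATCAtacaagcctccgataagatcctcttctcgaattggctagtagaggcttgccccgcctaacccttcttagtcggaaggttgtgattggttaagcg
Pck2: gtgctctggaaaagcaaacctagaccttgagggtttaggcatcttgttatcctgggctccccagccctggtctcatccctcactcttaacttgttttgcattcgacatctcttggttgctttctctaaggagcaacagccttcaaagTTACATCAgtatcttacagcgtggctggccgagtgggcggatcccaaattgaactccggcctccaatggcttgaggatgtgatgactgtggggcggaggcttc
Got2: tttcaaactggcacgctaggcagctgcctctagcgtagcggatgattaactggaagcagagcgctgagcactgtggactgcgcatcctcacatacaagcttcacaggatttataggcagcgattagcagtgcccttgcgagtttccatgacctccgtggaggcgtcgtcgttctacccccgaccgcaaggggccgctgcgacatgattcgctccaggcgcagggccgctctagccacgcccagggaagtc
Pck1: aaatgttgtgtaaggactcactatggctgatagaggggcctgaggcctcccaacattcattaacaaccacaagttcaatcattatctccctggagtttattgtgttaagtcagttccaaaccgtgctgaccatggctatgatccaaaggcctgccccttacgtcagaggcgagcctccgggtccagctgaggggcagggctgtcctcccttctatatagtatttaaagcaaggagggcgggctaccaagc

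The motif reads TGATGAAA at Asns and TGATGCAA at Pycr1, both along the gene. At Got1 it reads TTGCATCA and at Pck2 TTACATCA along the gene, so the motif lies on the opposite strand there. The letters were not found in the stretches searched at Got2, Pck1, Aldh18a1, Gpt2, or either start of Bcat1 or Bcat2. For Gpt2 and Bcat1 the summits lay outside the stretch searched, so these windows do not cover the bases under their summits. At Aldh18a1 the 2-DG summits lay 36 to 50 bp inside the gene, near the downstream edge of the stretch, and that of replicate 4 fell outside it. The bases downstream of the Aldh18a1 summits were thus searched only in part.

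Peak summits lay close to the motif where there was one. In 2-DG replicates 1 to 4 the highest Asns summit lay 2.5, 5.5, 21.5 and 2.5 bp from the motif centre. At Pycr1 it lay 20.5, 6.5, 4.5 and 8.5 bp away, and at Got1 12.5, 13.5, 21.5 and 4.5 bp away. At Pck2 the distances were 19.5, 33.5, 27.5 and 26.5 bp, always on the side away from the start. Over the 2-DG lists the median per gene was 4, 7.5, 13 and 27 bp at Asns, Pycr1, Got1 and Pck2. In control replicate 1 the summit lay 42.5 bp from the motif centre at Asns and 30.5 bp at Pycr1, farther than in any 2-DG list. The Asns value belongs to 1 of a pair of summits of equal fold. Got1 and Pck2 had no start peak in any control list. Over other genes whose promoter held a summit in 4 of 4 2-DG lists, 25 of 45 promoters had the motif (55.6%). These belong to 24 genes, and at 22 of them the median distance was within 50 bp, with 26.8 bp as the middle value. Promoters with a summit in at least 3 of 4 control lists numbered 8, and 1 had the motif (12.5%).

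**Figure D2:**
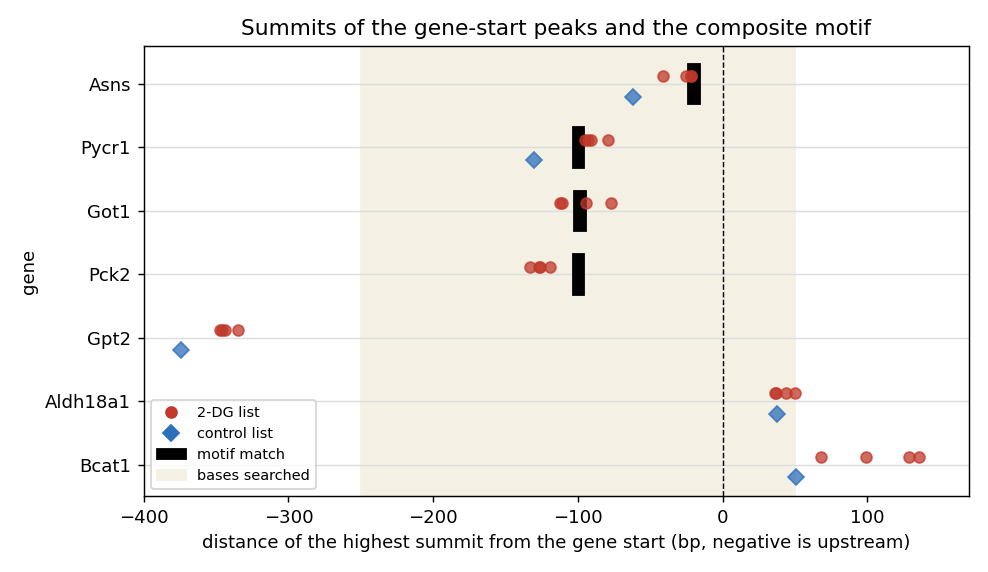
Distance of the highest summit from the gene start (horizontal axis, bp, negative is upstream) for the 7 enzymes with a start peak (rows), in 2-DG lists (circles) and control lists (diamonds). Black bars are matches to the motif and the shaded band is the stretch searched. Summits of 2-DG lists fall within 33.5 bp of the motif centre at the first 4 genes, upstream of the band at Gpt2 and downstream of the start at Aldh18a1 and Bcat1.

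Asns encodes asparagine synthetase, which makes asparagine from aspartate with glutamine as the amino donor. The gene lies at chr6:7675165-7693209 (mm10, minus strand), and the merged region at its start spanned chr6:7692334-7693974. The authors' fold over local background was 63.1, 51.6, 18.6 and 25.9 in 2-DG replicates 1 to 4, against 6.91 in control replicate 1 and no peak in control replicates 2 to 4. Folds belong to single peaks and were ranked only within a list. Peaks of equal fold shared the best rank of their tie, and every percentage from the top uses that rank. By fold the peak ranked 43 of 15240, 48 of 7369, 122 of 6371 and 89 of 5856 in the 2-DG lists, against 328 of 3461 in control replicate 1. It was thus among the strongest peaks of each 2-DG list, within the first 0.282 to 1.91%. The 2-DG summits lay at -22, -25, -41 and -22 bp from the start, where negative is upstream. In control replicate 1 the interval had a pair of summits of equal fold, and the one taken was at -62 bp. The nearest end of another protein-coding gene, Tac1, was 129356 bp away.

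Aldh18a1 and Pycr1 are the first and last enzymes of proline synthesis from glutamate. Aldh18a1, at chr19:40550257-40588463 (minus strand), encodes pyrroline-5-carboxylate synthase. Its start peak had a fold of 42.4, 35.2, 15.7 and 19.2 in 2-DG replicates 1 to 4, against 8.0 in control replicate 1 and no peak in control replicates 2 to 4. All 4 2-DG values ranked within the first 2.6% of their lists, and the control peak was within the first 6.73% of its own. Summits in the 2-DG lists lay at 36, 44, 37 and 50 bp inside the gene, and that of control replicate 1 lay at 38 bp, inside the 2-DG range. A second peak, in control replicate 4 alone, lay 4718 bp beyond the far end of the gene with a fold of 4.6.

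Pycr1, at chr11:120638998-120643748 (minus strand), encodes pyrroline-5-carboxylate reductase, the mitochondrial enzyme that releases proline. Its start region had a fold of 43.0, 38.8, 22.5 and 23.9 in 2-DG replicates 1 to 4, against 4.73 in control replicate 1 and no peak in the other control lists. The ranks were 96, 79, 89 and 111 in the 2-DG lists, against 1014 of 3461 in control replicate 1. The control peak thus stood within the first 29.3% of its list, lower in rank than any of the 2-DG peaks in theirs. Its summit was at -130 bp, outside the 2-DG range of -95 to -79 bp. Myadml2, the nearest other gene, ended 1818 bp from the region. The related reductase gene Pycrl, also named Pycr3, had no gene-end peak in any list. The most shared region in its window, in 2 2-DG lists and absent from the control lists, crossed an end of Zfp623.

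Among the transaminases, which pass an amino group to a keto acid, Got1 and Gpt2 had a start peak in every 2-DG list. Got2 had none called in any list. Got1, at chr19:43499752-43524605 (minus strand), encodes the cytosolic aspartate aminotransferase of the malate-aspartate shuttle. Its start peak had a fold of 23.8, 15.3, 7.34 and 11.3 in 2-DG replicates 1 to 4, and no control list called it. These were weaker in rank than the Asns peaks, at 293, 377, 640 and 396, the last of them within the first 6.76% of the list and the third within the first 10.0%. The one control peak in the Got1 window, in replicate 4 with a fold of 3.89, lay 7727 bp beyond the gene and nearer to Cnnm1.

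Got2, at chr8:95864133-95888401 (minus strand), encodes the mitochondrial aspartate aminotransferase. Its window held a peak in 2-DG replicate 1 alone, with a fold of 7.42, and in no control list. This peak was 11500 bp beyond the gene and 944 bp from an end of Slc38a7, a glutamine transporter gene. Got1l1, a further gene of this family, had a weak peak in 2-DG replicate 1 alone (fold 3.4), 1481 bp inside a gene end.

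Gpt2, at chr8:85492576-85528902 (plus strand), encodes the mitochondrial alanine aminotransferase. Its start region, chr8:85491607-85492742, had a fold of 60.6, 45.5, 24.0 and 22.9 in 2-DG replicates 1 to 4, against 4.73 in control replicate 1 and no peak there in the other control lists. The ranks were 50, 57, 80 and 117 in the 2-DG lists, against 1014 in control replicate 1. Every 2-DG value was within the first 2.0% of its list. Summits lay at -344, -347, -335 and -346 bp, a range of 12 bp, the tightest of the 7 start regions over the 2-DG lists and the farthest from its start. The control summit was at -374 bp. Gpt, the cytosolic isoenzyme gene, had a single window peak, in 2-DG replicate 1, that crossed an end of Lrrc14.

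Phosphoenolpyruvate carboxykinase turns oxaloacetate into phosphoenolpyruvate. Pck2, at chr14:55540263-55550020 (plus strand), encodes the mitochondrial form and was called at its start in the 2-DG lists alone. Its fold was 53.8, 36.6, 23.0 and 25.5 in 2-DG replicates 1 to 4, with no peak in the window in any control list. The ranks were 65, 93, 85 and 93, and each lay within the first 1.59% of its list. Summits at -119, -133, -127 and -126 bp spanned 14 bp.

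Pck1, the cytosolic form that is rate-limiting for gluconeogenesis in liver and kidney, lies at chr2:173153073-173159274 (plus strand). It had no gene-end peak in any of the 8 lists. A weak peak 13748 bp downstream of its start was called in 2-DG replicate 1 (fold 3.71, rank 11318 of 15240). Another lay 3449 bp downstream of the start, inside the gene, in control replicate 1 (fold 4.36, rank 1451 of 3461). No peak in this window was shared by lists of either treatment.

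Branched-chain aminotransferases start the breakdown of leucine, isoleucine and valine. Bcat1, the cytosolic form found in brain, lies at chr6:144993835-145076157 (minus strand). Its start peak had a fold of 30.3, 24.5, 9.78 and 9.95 in 2-DG replicates 1 to 4, against 4.73 in control replicate 1 and no start peak in the other control lists. The ranks were 195, 176, 355 and 500 in the 2-DG lists, against 1014 in control replicate 1. Summits lay downstream of the start at 68, 99, 136 and 129 bp, the widest spread (68 bp) of the 7 start regions, and the control summit lay at 51 bp. A further region inside Bcat1, chr6:145046797-145047260, was in 2 of 4 2-DG lists, replicates 1 and 2, and in no control list. Its summits were 1831 and 1791 bp downstream of the second annotated start of the gene, with folds of 5.57 and 6.76. Single peaks in control replicates 3 and 4 lay away from both starts, with folds of 3.74 and 3.89.

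Bcat2, the mitochondrial form, lies at chr7:45568967-45589710 (plus strand). No 2-DG list called a peak in its window. Control replicate 2 called a peak 7250 bp beyond the gene, with a fold of 5.13. With the window widened to 50 kb, Bcat2 took in 4 of 4 2-DG lists, against 1 of 4 control lists. The region that every 2-DG list called, with a peak in no control list, chr7:45616251-45616819, lay 26541 bp from Bcat2 and 761 bp from Fgf21, the gene of a secreted stress hormone, named after its values were seen. Its fold was 23.2, 16.4, 5.38 and 10.9 in 2-DG replicates 1 to 4.

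**Figure D3:**
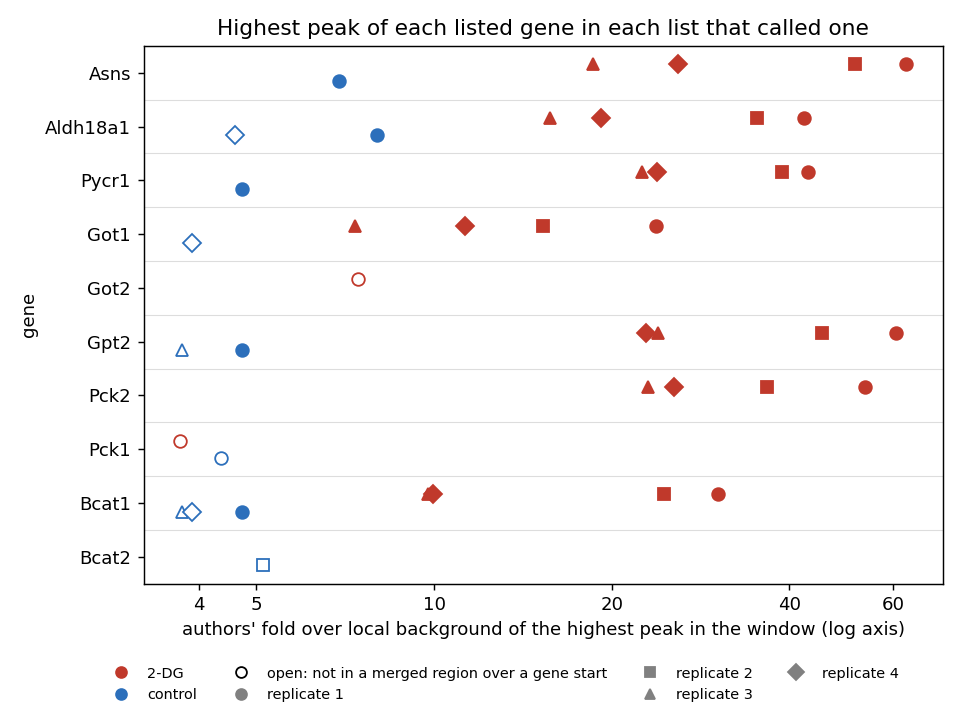
The authors' fold over local background (log axis) of the highest window peak of each listed gene (rows) in each 2-DG list (red) and control list (blue), 1 symbol shape per replicate. Filled symbols are peaks in a merged region that covers a gene start, and open symbols lie elsewhere. Filled 2-DG symbols run from 7.34 to 63.1 and the 5 filled control symbols, all from replicate 1, from 4.73 to 8.0.

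Set side by side, 1 gene of each isoenzyme pair had a gene-end call in every 2-DG list. The gene with the call was cytosolic for aspartate aminotransferase (Got1, not Got2) and branched-chain aminotransferase (Bcat1, not Bcat2). It was mitochondrial for alanine aminotransferase (Gpt2, not Gpt) and phosphoenolpyruvate carboxykinase (Pck2, not Pck1). At a gene end, Got1, Bcat1, Gpt2 and Pck2 were each called in 4 of 4 2-DG lists. Of the 4 partners (Got2, Bcat2, Gpt and Pck1) and 2 further sister genes (Got1l1 and Pycrl), only Got1l1 had a gene-end peak, in 1 of 4 2-DG lists, against 0 of 4 control lists. With 89.0% of all genes lacking one in all 8 lists, the absence at the partners is near the background and is not a result about them.

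The order of the 7 start peaks by fold was similar in the 4 2-DG lists. Asns came first in 2-DG replicates 1, 2 and 4 and was the fourth in replicate 3, where Gpt2 came first. Gpt2, Pck2 and Pycr1 stood among the first 4 in every 2-DG list. Aldh18a1 was the fifth in all 4 lists. Bcat1 and Got1 took the last places in all 4, with Got1 last in replicates 1 to 3 and Bcat1 in replicate 4. All 7 ranked within the first 1.92% of peaks in 2-DG replicate 1, and within the first 5.12, 10.0 and 8.54% in replicates 2, 3 and 4.

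**Figure D4:**
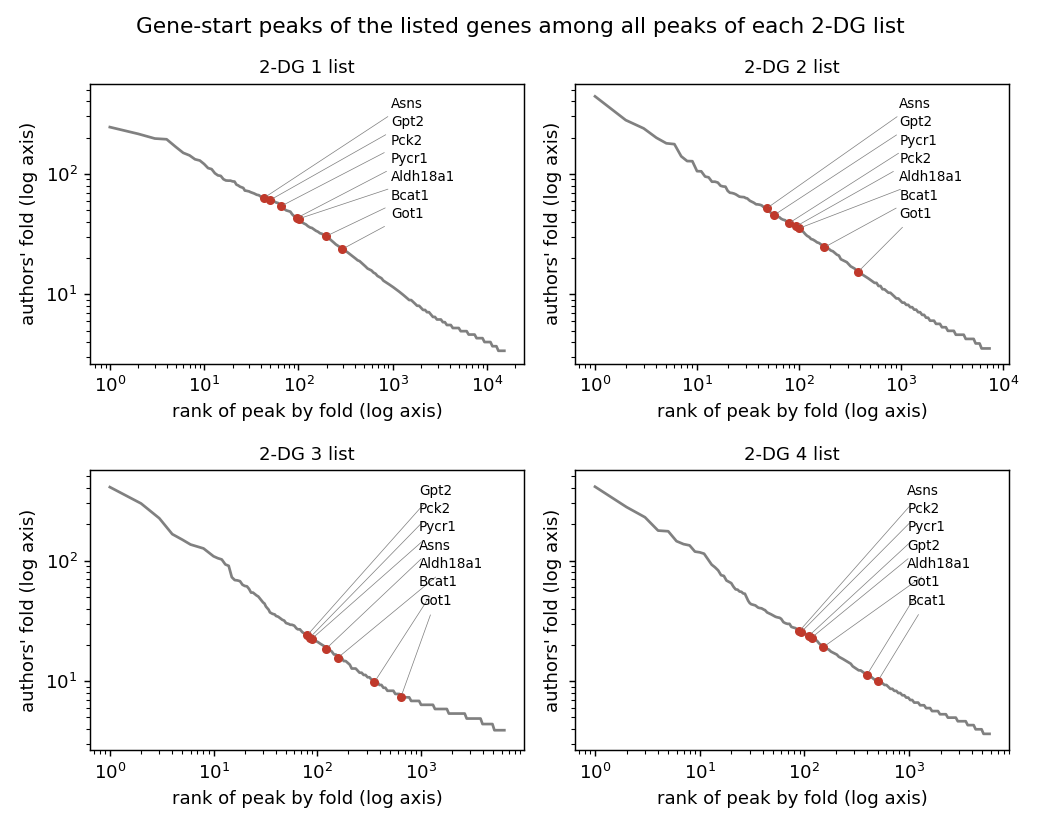
Fold of each peak against its rank within the list (both axes logarithmic) for the 4 2-DG lists, grey lines for all peaks and red points for the start peaks of the 7 bound enzymes. All 7 lie in the upper part of each curve, from rank 43 for Asns in 2-DG replicate 1 to rank 640 for Got1 in 2-DG replicate 3.

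Other enzymes of the same pathways gave a comparison list. It held 50 genes of proline, glutamate, asparagine, aspartate and branched-chain amino acid metabolism, gluconeogenesis and other aminotransferases. Of these, 4 had a window peak in at least 3 of 4 2-DG lists, beside the background of 12.0%, and 0 in at least 3 of 4 control lists. None of the 50 had a gene-end peak in 4 of 4 2-DG lists, which is near the background of 1.03%. Pepd, which encodes the dipeptidase that frees proline, had a region in all 4 2-DG lists, against 0 of 4 control lists, 11189 bp from the gene and 52 bp from an end of Cebpg, a C/EBP-family gene. Cs, the citrate synthase gene, had a region in all 4 2-DG lists, against 1 of 4 control lists, 14966 bp from the gene and across an end of Cnpy2. Aspg and Abat were called in 3 of 4 2-DG lists, but at places that no 2 of these lists shared, and in 1 and 2 of 4 control lists. The other genes of the list included Prodh, Oat, Glul, Pcx, Bckdha and Bckdk, and each was called in at most 2 of 4 lists of either treatment.

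The genes whose pattern was most like that of Asns were found by the percentile of the highest window peak in each of the 8 lists. Lrp1, Ndufa4l2, Nxph4, Shmt2 and Stac3 shared the smallest mean difference from Asns, 0.133 percentile points. Their values were identical in every list, 99.8, 99.3, 98.7 and 98.9 in 2-DG replicates 1 to 4 and 90.6 in control replicate 1, with 0 in control replicates 2 to 4. All 5 lie on chromosome 10. A single peak per list in overlapping windows would give such equal values, so they are not counted as 5 separate sites. Asns itself stood at 99.7, 99.4, 98.1 and 98.5 in the 2-DG lists, against 90.6 in control replicate 1, with 0 in control replicates 2 to 4.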

How the data were processed

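The authors deposited 1 peak list per sample. The submitters' processing notes name BWA, Picard, MACS2, DiffBind and mm10, with no versions or settings. The deposited values are a fold enrichment (a ratio) over local background, -log10 of p and of q, and a score (10 times -log10 q), all made by the authors. Summits of 1 interval were joined into a peak at its highest summit, and overlap meant at least 1 bp. Genes and starts came from RefSeq (GRCm38.p6). All 64 list genes matched, 1 through an older name. Of 18 samples, 8 lists were compared. In 4 samples, 2 with lists, title and description name different treatments, and inputs were not used. The design states 3 independent replicates against 4 lists per treatment here, and nothing ties lists to separate cultures, so a p-value covers only list-to-list spread, which may be technical. Tests were Fisher's exact test with Benjamini-Hochberg adjustment over all genes (scipy 1.17.1). Members, gene lists and the naming rule (members, isoenzymes, pathway genes called in at least 3 of 4 lists, nearest genes, 5 patterns like Asns) were chosen with earlier results of these data known. The code was tested on simulated lists, with a strong peak planted at an end of 200 genes in every simulated 2-DG list. The window rule called 200 of 200 planted genes in all of those lists. This checks the overlap of peaks with genes and does not measure the power of Fisher's test. Alternatives were other windows, thresholds, equal list lengths, left-out lists and added lists. Results for some comparison genes are not reported here.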

Additional observations from a re-analysis of the deposited data

Results flagged for a closer look

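Of 15 groups of 4 lists screened, 5 held a list far from the others. Chance flags about 1 in 20 groups, and counts that are equal in 3 lists always pass once the fourth differs. 2-DG replicate 1, the longest list, had a window peak at 9 of the 10 enzymes, where the other 2-DG lists had 7. It also had one at 32.7% of all genes, against 19.1, 17.0 and 15.1% in 2-DG replicates 2 to 4. Control replicate 1 had a gene-end peak at 5 enzymes and a promoter summit at 3, where the other control lists had 0. Of all genes, 1.51% had a gene-end peak in it, against 1.25, 2.02 and 1.89% in control replicates 2 to 4. The share of all genes with a promoter summit is not given per list. 2-DG replicate 4 had a promoter summit at 4 enzymes and the other 2-DG lists at 5, because its Aldh18a1 summit lay 50 bp from the start, at the edge of the stretch. The Asns summit of 2-DG replicate 3 was at -41 bp, where the other 2-DG lists ran from -25 to -22 bp.

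One list whose title says 2-DG but whose description says control was kept out of both groups. It had a gene-end peak at 7 of the 10 enzymes and at 2.93% of all genes. Each 2-DG list also held 7 of the enzymes, and the control lists held 0 to 5.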

How the results depend on the processing

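The count of enzymes called in at least 3 of 4 2-DG lists was 7 and stayed at 7 under every alternative except a window of 50 kb (8) and a summit in the promoter (5, chosen after seeing the data). Leaving out 1 list could not change it, because control lists do not enter it and all 7 were called in 4 of 4 2-DG lists. The count called in every 2-DG list but in none of the control lists was 1. It was 0 with 50 kb or when lists with conflicting labels were grouped by description. It was 2 by gene ends, with 5000 bp, at -log10 q of at least 2 or with equal list lengths of 3461 peaks, and 5 at -log10 q or fold of at least 5. Choices made after seeing the data gave 2 by 1 merged region (2.61% of all genes) or a promoter summit (0.16%), and 7 by merged region without control replicate 1 (3.11%). Leaving out 1 list gave 1 to 3, with 3 without control replicate 1 and 2 without control replicate 4. The count called in at least 3 of 4 control lists, 1, was 4 with 50 kb, 0 to 1 when 1 list was left out, and 0 by gene ends, with 5000 bp, under both q limits, at fold of at least 5, with equal lengths, with conflicting lists added by title, and under the merged-region and promoter rules. Without control replicate 1, 3 or 4 it was 0. No share of all genes is given for the other window sizes, the q and fold limits, equal list lengths, or left-out or added lists by the window. Counts under those settings therefore cannot be set against a background. Enzymes called per list differed by 4.5 between 2-DG and control, by 6.75 at -log10 q of at least 5, by 6.5 at fold of at least 5, by 2.6 with the conflicting lists added by description, and by 3.83 to 5.5 when 1 list was left out. The motif count of 4 genes was 1 for TGATGCAAT and 2 for TTGCATCA. Bcat2 turned direction with 50 kb, at 75 percentage points more 2-DG than control lists, where the wider window takes in the Fgf21 region. Other causes were not tested. No paired analysis was run, because the titles number every sample separately and share no replicate number. Replicate numbers here follow title order within a treatment. The titles run in repeating blocks of control and 2-DG samples, and whether a block is a pair is not stated. Depth is unknown, so no limit of detection can be set.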

Other observations

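A pair of lists carried labels that name different treatments and entered no group. The list with 2-DG in its title and control in its description called the start region of all 7 bound enzymes, with folds of 17.4 at Asns, 12.8 at Aldh18a1, 13.2 at Pycr1, 7.64 at Got1, 20.1 at Gpt2, 16.3 at Pck2 and 8.33 at Bcat1. Its summits at the 4 genes with the motif lay 13.5, 14.5, 7.5 and 19.5 bp from the motif centre at Asns, Pycr1, Got1 and Pck2. It had no gene-end peak at Got2, Pck1 or Bcat2, and had one at 2.93% of all genes. The list with control in its title and 2-DG in its description had a window peak at 2 enzymes, and at 10.7% of all genes. It called no gene-end peak at any of the 10 enzymes, which is near its share of 1.44% of all genes. Its one peak in a region described above lay inside Pck1, 3550 bp downstream of the start, with a fold of 3.89.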
